A study of Mus musculus with 6 samples.

Results

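The 10 genes described here are STAT5A and STAT5B, the transcription factors that oncogenic tyrosine kinases such as BCR-ABL activate, and 8 of their targets and feedback genes: Cish, Socs1, Socs2, Socs3, Pim1, Pim2, Osm and Bcl6. They were chosen by symbol, and all 10 were found among the 53735 genes of the deposited table. Transcripts were measured by RNA sequencing in leukemia stem cells, the cell fraction that can regrow a leukemia, with 3 libraries from liver and 3 from bone marrow. Both groups came from untreated mice of strain C57, labelled male, on day 13 after leukemia cells had been transplanted, so tissue is the only labelled difference between them. The labels name neither the oncogene of the leukemia nor the surface markers used for isolation. Each tissue's libraries are labelled as technical replicates with no animal given, and the p-values therefore cover the variation among 6 libraries, part of which may be technical.

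Cytokine receptors and tyrosine kinases phosphorylate STAT5, which then enters the nucleus and binds DNA. Among the genes it turns on are those of the SOCS family, whose proteins bind receptors or JAK kinases and shut the signal down, so that their transcripts are often read as a gauge of the pathway. The PIM kinases act further down and support growth and survival of blood cells. In chronic myeloid leukemia STAT5 is known as a main effector of BCR-ABL.

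The libraries held 9.73 to 13.8 M reads in liver and 15.4 to 18.5 M in bone marrow. Replicate 1 of both tissues carried Xist, the RNA of the inactive X chromosome, at 6229 normalized counts in liver and 4860 in bone marrow. Replicate 2 stood at 1.42 in liver and 4.28 in bone marrow, and replicate 3 held 2425 in liver and 2486 in bone marrow. Replicates 1, 2 and 3 had 0, 2675 and 1634 normalized counts of 4 summed Y-linked genes in liver, against 145, 2987 and 1553 in bone marrow. These values go against the label male for replicate 1 and against replicates 1 and 2 being repeat libraries of 1 sample. Replicate 3 held Xist and Y-linked transcripts together in both tissues, which goes against a single male as its source. All 7 stem and progenitor markers looked up were measured, and none passed by limma. Their log2 fold changes went both ways, at 0.378 (Kit), 0.174 (Flt3), 0.163 (Cd48), 0.217 (Hoxa9), -0.542 (Cd34), -0.858 (Ly6a) and -0.295 (Meis1). Their summed level ran from 12760 to 13290 in liver and from 13460 to 14130 in bone marrow. Hoxa9, a homeobox gene of immature blood cells, lay between 2480.3 and 2841 in liver and between 2209.8 and 2438 in bone marrow. Of 7 hepatocyte genes looked up, Alb, Ttr, Serpina1a and Fgb had 0 reads in every library, which allows up to 4.26 normalized counts in the shallowest. Apoa1 of the same list was present, at 2285 to 3003 in liver and 2645 to 5659 in bone marrow. Apoa2 was low, at 4.28 to 25.3 over the 6 libraries. The summed level of 8 neutrophil markers ran from 404 to 3663 in liver and from 143 to 202 in bone marrow, with 1 of the 7 tested, Mpo, passing. Mpo made up most of the liver sums, at 283, 2250 and 1328 in replicates 1, 2 and 3. Ltf alone of the tested markers had a negative log2 fold change, at -0.28. In a mixed sample fewer cells of a type and less RNA per cell cannot be told apart.

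None of the 9 members tested passed the threshold of an adjusted p under 0.05 in liver against bone marrow. The test was limma on log2(normalized count + 1), adjusted over 14298 genes with a mean of at least 10, and Bcl6 lay under that mean. Of all genes tested 1.01% passed. With edgeR on the recovered reads the count was 0 and with DESeq2 it was 1, Cish, where 4.46% of all genes passed. None of these fits paired libraries by replicate number, although Xist and Y-linked levels matched by number in both tissues. The count of members passing depends on this choice. A fit with the replicate number as a term is given at the end. In it Cish and Socs1 passed, among 525 of the 14298 genes tested. By limma 3 members had an unadjusted limma p under 0.05 and a lower level in liver, as had 8.04% of all genes. These were the feedback genes Cish, Socs1 and Socs3, and in each of them every liver library lay below every bone marrow library, as in 10.9% of all genes tested. Of the 9 fold changes 8 were negative, as were 7374 of all 14298. The median of the 9 was -0.19 on the log2 scale, against -0.0092 over all genes tested.

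**Figure D1:**
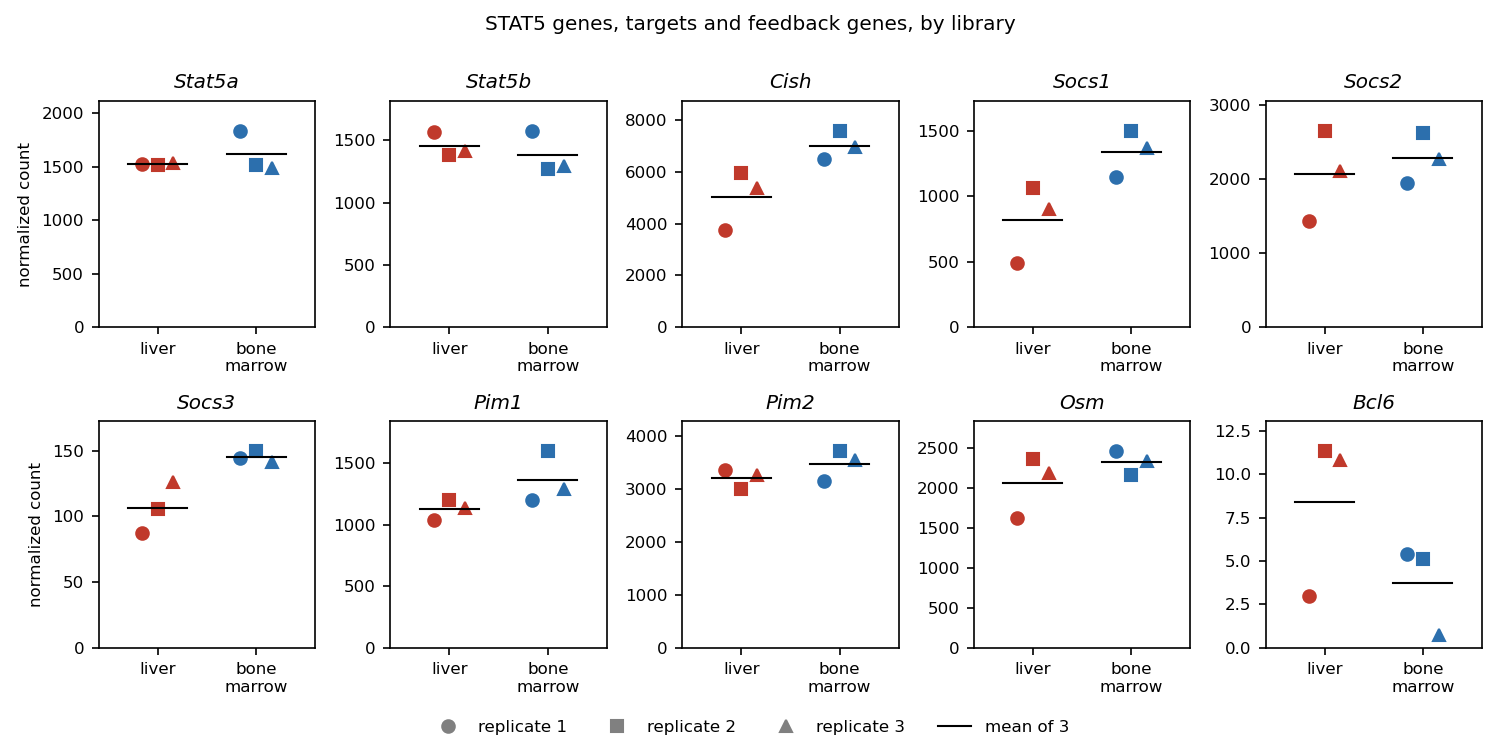
Normalized counts (vertical axes, from 0) of the 10 genes in each liver (red) and bone marrow (blue) library, with the symbol giving the replicate number and the line the mean of 3. For Cish, Socs1 and Socs3 all liver points lie below all bone marrow points, and for the other 7 genes the tissues overlap.

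Neither transcription factor gene passed, and both had narrow intervals around 0. Stat5a had 1519.5, 1511 and 1534 normalized counts in liver replicates 1, 2 and 3, against 1836, 1515 and 1489 in bone marrow replicates 1, 2 and 3. The tissues overlapped, and bone marrow replicate 1 alone stood apart. The log2 fold change was -0.08 with a 95% interval from -0.29 to 0.13 (limma adjusted p = 0.736), which in linear terms runs from 0.820-fold to 1.10-fold.

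Stat5b, the closely related neighbour of Stat5a on chromosome 11, had 1567, 1379 and 1414 normalized counts in the liver libraries, against 1578, 1271 and 1291 in bone marrow. Again the tissues overlapped, and replicate 1 was the highest library of both. Its log2 fold change was 0.08, with an interval from -0.16 to 0.32 (limma adjusted p = 0.763). These intervals bound a difference in transcript level only, since phosphorylated STAT5 protein was not measured. Stat5a lies from 100859351 to 100885169 on the plus strand and Stat5b from 100780731 to 100850724 on the minus strand of chromosome 11 (GENCODE M21, GRCm38). Of the exon bases of Stat5a 72 are shared with Stat3, whose reads cannot be told apart there in a library that does not mark strand. Reads could also be split between Stat5a and Stat5b where their coding sequences are alike, so values of the pair are uncertain to that extent.

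Cish encodes CIS, which binds phosphorylated receptors and competes with STAT5 for them, and it drew the most reads of the 10, without regard to length. Liver replicates 1, 2 and 3 had 3754, 5957 and 5361 normalized counts, and bone marrow replicates 1, 2 and 3 had 6493, 7587.5 and 6942. No liver library reached the lowest bone marrow library. The mean was 5024 ± 1139 in liver and 7008 ± 550.1 in bone marrow (SD, n = 3 each), so that liver held 71.7% of the bone marrow level. The log2 fold change was -0.50 ± 0.16 (SE), with an interval from -0.88 to -0.13 that does not allow for the number of genes tested, and a limma adjusted p of 0.199. DESeq2 on the recovered reads gave an adjusted p of 0.042, and over the 17 alternatives run for this gene the adjusted p lay between 0.027 and 0.879 with a negative fold change in all 17. Liver replicate 1 set much of the size, and without it the log2 fold change was -0.31 (limma adjusted p = 0.083). Cish lies on chromosome 9 from 107296026 to 107302784 on the plus strand (GENCODE M21, GRCm38), and 740 of its 6419 exon bases are shared with Gm17040 and Gm17041.

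Socs1, a direct inhibitor of JAK kinases, had the largest difference of the 10 among those tested. Its level was 489, 1059 and 901 normalized counts in liver replicates 1, 2 and 3, against 1148, 1501 and 1369.6 in bone marrow. All liver libraries lay below all bone marrow libraries, and liver replicate 1 was far below the other two. The means were 816 ± 294 in liver and 1339.7 ± 178 in bone marrow (SD, n = 3 each), or 60.9% of the bone marrow level. On the log2 scale the difference was -0.78 ± 0.27 (SE), with an interval from -1.41 to -0.15 (limma adjusted p = 0.227). Without liver replicate 1 it was -0.45 (limma adjusted p = 0.109). Socs1 occupies bases 10782240 to 10785536 of chromosome 16, minus strand (GENCODE M21, GRCm38), with no exon overlap to another gene.

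Socs3, which binds the gp130 receptor chain and JAK kinases, was the third gene without overlap and had far fewer reads. It had 86.9, 105 and 126 normalized counts in liver, from 88, 74 and 105 reads, against 145, 149.85 and 141 in bone marrow, from 161, 175 and 190 reads. The bone marrow libraries sat close together and above all liver libraries. Liver averaged 106 ± 19.8 and bone marrow 145 ± 4.33 (SD, n = 3 each). The log2 fold change was -0.46 ± 0.18 (SE), with an interval from -0.89 to -0.04 (limma adjusted p = 0.285).

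Socs2 is a STAT5 target known for restraining growth hormone signalling, and its tissues overlapped. Liver replicates 1, 2 and 3 had 1434, 2655 and 2114.5 normalized counts, and bone marrow replicates 1, 2 and 3 had 1953, 2622 and 2264. The highest and the lowest of the 6 libraries were both from liver. The log2 fold change of -0.18 had an interval from -0.68 to 0.33 (limma adjusted p = 0.753), wide enough to hold 0.624-fold and 1.26-fold.

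**Figure D2:**
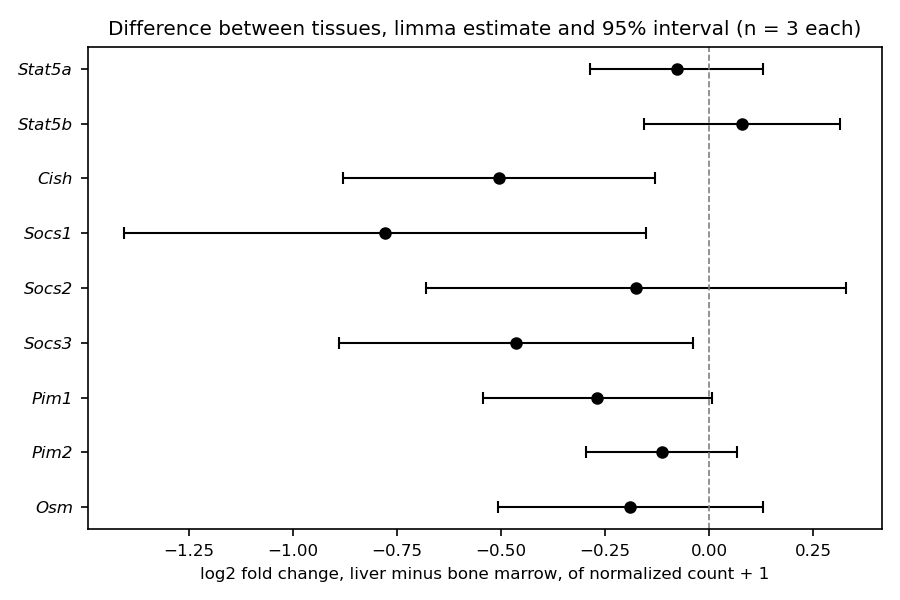
Log2 fold change of liver minus bone marrow (horizontal axis) for the 9 members tested, as the limma estimate with its 95% interval, which is not adjusted for the number of genes (n = 3 each). The intervals of Cish, Socs1 and Socs3 lie below 0 and those of the other 6 include 0.

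Neither PIM kinase gene passed by limma, and both means were slightly lower in liver. Pim1 had 1035, 1199.6 and 1139 normalized counts in liver, against 1198, 1602 and 1289 in bone marrow. The tissues overlapped by a narrow margin, since liver replicate 2 was just above bone marrow replicate 1. Its log2 fold change was -0.27 ± 0.12 (SE), with an interval from -0.54 to 0.0073 (limma adjusted p = 0.329), and without bone marrow replicate 2 it was -0.15. Of its 3362 exon bases 488 are shared with Gm26885.

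Pim2, the X-linked member of the pair, had 3344, 2999 and 3252 normalized counts in liver, against 3138, 3714 and 3545 in bone marrow. Its tissues overlapped, and its order of libraries was not that of Pim1, since replicate 1 was the highest in liver and the lowest in bone marrow. The difference was -0.11 on the log2 scale, with an interval from -0.30 to 0.07 (limma adjusted p = 0.547). The order of the liver libraries was that of Xist and the order of the bone marrow libraries the reverse, and the part of X-linked dosage was not tested.

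Osm encodes oncostatin M, a cytokine of the interleukin-6 family that STAT5 induces in blood cells. Its transcript had 1626, 2367 and 2187 normalized counts in liver, against 2468, 2163 and 2335.5 in bone marrow. Liver replicate 1 was low and the other liver libraries lay within the bone marrow range. The log2 fold change was -0.19, with an interval from -0.51 to 0.13 (limma adjusted p = 0.568), and without liver replicate 1 it was -0.03. The gene of the receptor chain specific to this cytokine, Osmr, had 0 reads in all 6 libraries, which allows 2.23 to 4.26 normalized counts per library. Osmr was singled out after its value was seen.

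Bcl6, a repressor that STAT5 is known to turn off, was near the limit of detection. The liver libraries held 3, 8 and 9 reads, or 2.96, 11.4 and 10.8 normalized counts, against 6, 6 and 1 reads in bone marrow, or 5.39, 5.14 and 0.744. Liver replicates 2 and 3 were the highest, but liver replicate 1 lay within the bone marrow range. The means were 8.39 normalized counts in liver and 3.76 in bone marrow. With 20 reads in liver and 13 in bone marrow no difference was detectable at this depth, and the gene was not tested in the main fit. In the limma fit without a filter its log2 fold change was 1.03, and it did not pass.

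Per kilobase of all annotated exons merged, Pim2, Osm and Cish were the most abundant of the 10, and Socs3 and Bcl6 the least. Pim2 averaged 1144 normalized counts per kb in liver and 1240.0 in bone marrow, Osm 907 in liver and 1022 in bone marrow, and Cish 783 in liver and 1092 in bone marrow. Pim2 was above Osm and above Cish in 6 of 6 libraries, although the ranges over libraries overlapped, while Osm was above Cish in 4 of 6. Socs1, at 281 in liver and 461 in bone marrow, and Pim1, at 334.5 in liver and 405 in bone marrow, came next and overlapped each other. Socs1 was below Stat5b in 1 library, liver replicate 1, at 168 against 283. Stat5b (262 in liver, 249 in bone marrow), Socs2 (217 and 239) and Stat5a (213 and 226) overlapped in their ranges. Stat5b was above Stat5a in 6 of 6 libraries and above Socs2 in 3 of 6. Socs3, with 36.7 in liver and 50.2 in bone marrow, lay below all of these in every library, and Bcl6, with 1.25 in liver and 0.561 in bone marrow, lay below Socs3. Exon lengths were those of GENCODE M21, which need not be the annotation used for counting. Each length merged the exons of all annotated transcripts. For Cish this gave 6419 bases, nearly the whole gene from 107296026 to 107302784, against 2795 for Pim2 and 2272 for Osm. The order of Cish against Pim2 and Osm depends on these lengths and is not settled. Without regard to length, Cish averaged 6016 normalized counts over the 6 libraries, Pim2 3332 and Osm 2191.

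**Figure D3:**
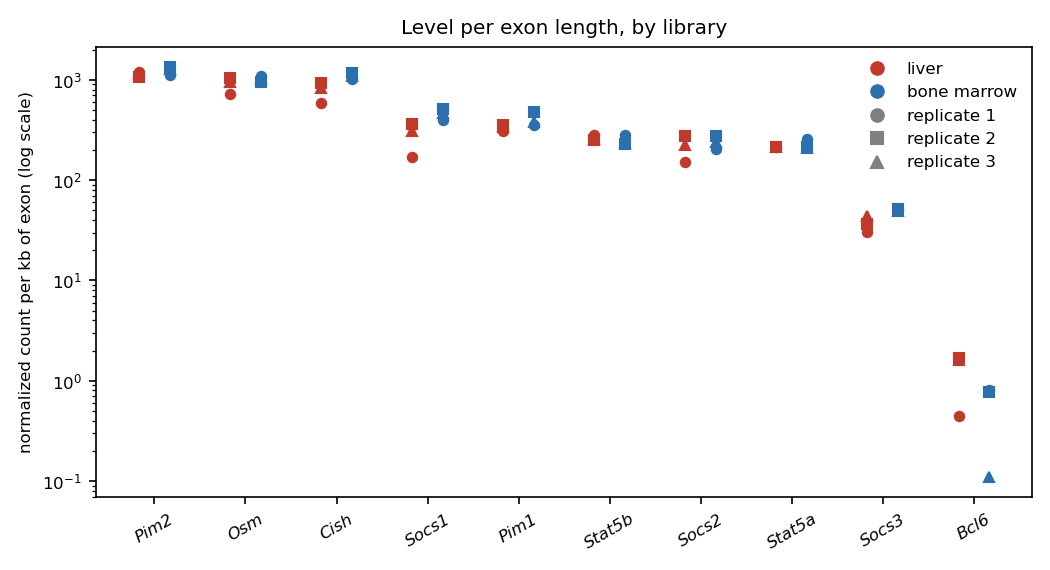
Normalized counts per kilobase of all annotated exons merged (vertical log axis) of the 10 genes in each liver (red) and bone marrow (blue) library, ordered by the mean over 6 libraries. The symbol gives the replicate number. Pim2, Osm and Cish are at the top, the ranges of Socs1, Stat5b, Socs2 and Stat5a overlap, Socs3 lies between 30.1 and 51.8, and Bcl6 is under 2.

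Libraries of 1 tissue differed among themselves as well. For Cish, Socs1, Socs2 and Pim1, replicate 1 was the lowest and replicate 2 the highest library in liver and again in bone marrow. Replicate 1 was the lowest liver library for 6 of the 9 members tested. This order was not particular to these genes, since the summed levels of 7 of the 9 marker lists followed it. Several of these sums were nearly all 1 gene (Apoa1, Adgre1, Pecam1 or Nkg7), so they do not show that cell types followed the order. The share of all genes with this order was not computed. Basophil and mast cell markers, 1 of the 7 lists, summed to 15670, 24140 and 20520 normalized counts in liver replicates 1, 2 and 3, against 22370, 25550 and 23600 in bone marrow. Of these markers 1 was higher and 1 lower in liver past the threshold, Prss34 and Tpsb2, and none was at 0 in all libraries. The 6 erythroid markers summed to 3288 to 4436 in liver and 5748 to 6706 in bone marrow, with 0 of 6 passing by limma. The part of these cells and of the sex-linked difference between replicates in the levels of Cish, Socs1 and Socs3 was not tested.

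By their pattern over the 6 libraries, the genes most like Cish among 11441 candidates were Pnpla7, Ctsc and the unnamed RP23-115A1.10. The measure was the root mean square difference of log2 values centred on each gene's mean, which was 0.0435 for Pnpla7, 0.046 for Ctsc and 0.0578 for RP23-115A1.10. Ctsc, the gene of a lysosomal protease, had 2760.4, 4777 and 4341 normalized counts in liver, against 4986, 5811 and 5401 in bone marrow, the order of libraries seen for Cish. The genes most like Osm were Mad2l1bp (0.0344), Brms1l (0.0353) and Ttc17 (0.0403). These likenesses rest on 6 points and describe the libraries.

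Stretches around the annotated start are shown for the members in which the STAT5 consensus TTCNNNGAA was found, since this is the DNA element through which the factor acts on its targets. The consensus reads the same on both strands. It was searched in RefSeq windows (GRCm38.p6) of 300 bases, 250 before and 50 from the start on, which matched 8 of the 10 members with 12 windows. Matches, in capitals, were found in 4 windows of 3 members, against 8.30% of all 32851 windows in the table. The sequences run 5′ to 3′ on the strand of the gene, from chr9:107296579-107296678 (plus strand) for Cish, chr11:117969467-117969566 (minus strand) for Socs3 and chr16:23981354-23981463 (minus strand) for the second Bcl6 start.
Cish: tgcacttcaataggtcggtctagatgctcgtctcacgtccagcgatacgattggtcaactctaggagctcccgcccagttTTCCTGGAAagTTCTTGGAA
Socs3: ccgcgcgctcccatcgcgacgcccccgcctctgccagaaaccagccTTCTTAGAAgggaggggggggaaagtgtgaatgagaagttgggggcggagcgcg
Bcl6: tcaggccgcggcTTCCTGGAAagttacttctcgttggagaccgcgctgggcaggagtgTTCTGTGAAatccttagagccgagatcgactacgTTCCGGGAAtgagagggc

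Cish held a close pair of matches, the first beginning at the RefSeq start base, counted as 0, and the second at 11. Windows with at least 2 matches were 0.457% of the table. The single match of Socs3 began at -154, and the 3 at the second Bcl6 start began at -168, -122 and -88, with 1 more at the first Bcl6 start at -118. In GENCODE M21 the gene begins farther upstream for Cish, at 107296026, and for Socs3, at 117970047 on the minus strand. By that annotation the Cish and Socs3 windows lie inside the genes. Of the 3 members without overlap between tissues, Cish and Socs3 thus held the consensus within their windows and the Socs1 window did not. Neither did those of Stat5a, Stat5b, Pim1 and Pim2. A match describes these letters in the window and is not evidence of binding in these cells.

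**Figure D4:**
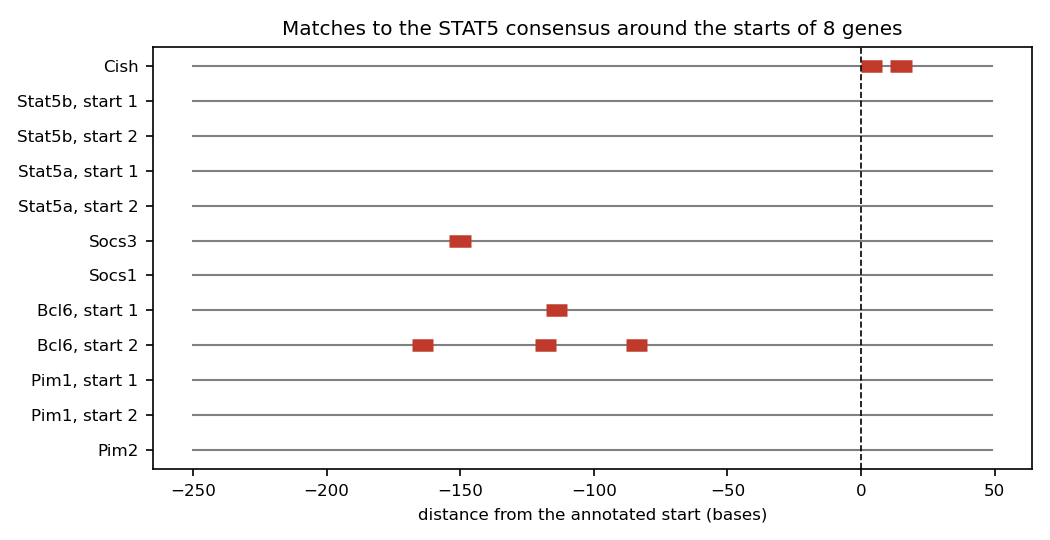
Positions of the STAT5 consensus (red) in the 12 RefSeq windows of 8 members, by distance in bases from the annotated start (dashed line). Matches appear in the windows of Cish, Socs3 and Bcl6 and in none of the other 8.

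Among 48 further genes of the pathway, 44 were tested, of which 0 rose, 2 fell in liver and 42 did not pass, while 0.594% of all genes tested were lower. The median log2 fold change of the 44 was -0.05. The 2 genes were Csf2rb2, a receptor chain for interleukin-3, and Csn2, which encodes beta-casein of milk and through whose promoter STAT5 was first known. With DESeq2 on the recovered reads 4 were lower and 1 higher, and with edgeR 2 were lower.

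Receptors that signal through JAKs included the larger differences upstream of STAT5, with 1 of 12 tested lower, 0 higher and 11 not passing (median -0.65). Csf2rb2 had 422, 327 and 320.3 normalized counts in liver, against 1158, 747 and 893 in bone marrow. All liver libraries lay below all bone marrow libraries, and the log2 fold change was -1.37 ± 0.18 (SE) (limma adjusted p = 0.027). It passed with all libraries and without liver replicate 1. Leaving out liver replicate 2 or 3 gave a limma adjusted p of 0.052 or 0.183, and leaving out bone marrow replicate 1, 2 or 3 gave 0.096, 0.061 or 0.177. Csf2rb, the chain shared by the receptors of interleukin-3, interleukin-5 and GM-CSF, had 2654, 3185 and 2981.5 in liver and 5023, 3834 and 4028 in bone marrow, without overlap (limma adjusted p = 0.083). Csf2rb2 and Csf2rb are near-identical copies whose reads could be split in counting, so each value is uncertain.

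The alpha chain of the interleukin-3 receptor, Il3ra, averaged 223.5 ± 39.9 normalized counts in liver and 344 ± 26.6 in bone marrow (SD, n = 3 each), again without overlap (limma adjusted p = 0.118). The gp130 chain gene Il6st, through which oncostatin M signals, averaged 23.3 ± 1.83 in liver and 53.5 ± 11.5 in bone marrow (limma adjusted p = 0.115). The 4 receptor genes not tested were Il5ra, Ghr, Prlr and Osmr, of which Prlr and Osmr had 0 reads.

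Kinases and the other STAT genes had small differences. None of 4 JAK kinase genes and none of 5 other STAT genes passed with limma, and their medians were -0.10 and -0.13 on the log2 scale. Jak2, the kinase that carries most cytokine signals to STAT5, averaged 1828 ± 190.2 normalized counts in liver and 1967 ± 143 in bone marrow (SD, n = 3 each). Jak1 had a log2 fold change of -0.14, Tyk2 of -0.09 and Jak3 of -0.08. Stat6, the factor of interleukin-4 signalling, was the 1 of these 9 with an unadjusted limma p under 0.05, at 2391 ± 39.3 in liver and 2625 ± 127 in bone marrow (limma adjusted p = 0.318). Stat2 (-0.19) and Stat3 (-0.03) had adjusted p of 0.557 and 0.894 by limma.

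Positive fold changes were found for 3 of 4 other SOCS genes and 7 of 10 further regulators, and for 6924 of all 14298 genes tested. None of the SOCS genes and regulators passed with limma. The 4 other SOCS genes had a median of 0.15 on the log2 scale, with Socs6 at 0.22, Socs4 at 0.23, Socs7 at 0.09 and Socs5 at -0.05. The 10 other regulators had a median of 0.08. Among them were Cbl, a ubiquitin ligase (0.20), the phosphatase gene Ptpn1 (0.13), Pias3 (0.21) and Sh2b3, the gene of the JAK2-binding adaptor LNK (-0.12). Whether these genes differ from Cish, Socs1 and Socs3 in their change was not tested.

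Of 9 other STAT5 targets 1 fell, 0 rose and 8 did not pass (median -0.05). Csn2 had 3.95, 18.5 and 13.2 normalized counts in liver, from 4, 13 and 11 reads, against 169, 346 and 201.5 in bone marrow, from 188, 404 and 271 reads. The tissues were far apart in all libraries, with a log2 fold change of -4.36 ± 0.54 (SE) (limma adjusted p = 0.023). The call was lost without any 1 of the bone marrow replicates, with an adjusted p of 0.103, 0.110 and 0.177, and without liver replicate 3, at 0.134, with log2 fold changes from -4.77 to -3.78 over the 6 such fits. Prlr, the prolactin receptor through which this gene is induced in the mammary gland, had 0 reads in every library.

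Id1, which encodes an inhibitor of helix-loop-helix factors, averaged 389.6 ± 96.5 normalized counts in liver and 229 ± 24.2 in bone marrow (SD, n = 3 each), without overlap, as in 11.4% of all genes tested in this direction (limma adjusted p = 0.141). DESeq2 gave it an adjusted p of 0.016, and limma without liver replicate 1 gave 0.025, in a range of 0.016 to 0.879 over 17 alternatives. The cyclin gene Ccnd3 was likewise higher in every liver library, at 5951 ± 239 in liver and 4911 ± 503 in bone marrow (limma adjusted p = 0.152). Mcl1, a survival gene of the BCL2 family, was lower in every liver library, at 4119 ± 428 in liver and 4883 ± 155 in bone marrow (limma adjusted p = 0.199).

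**Figure D5:**
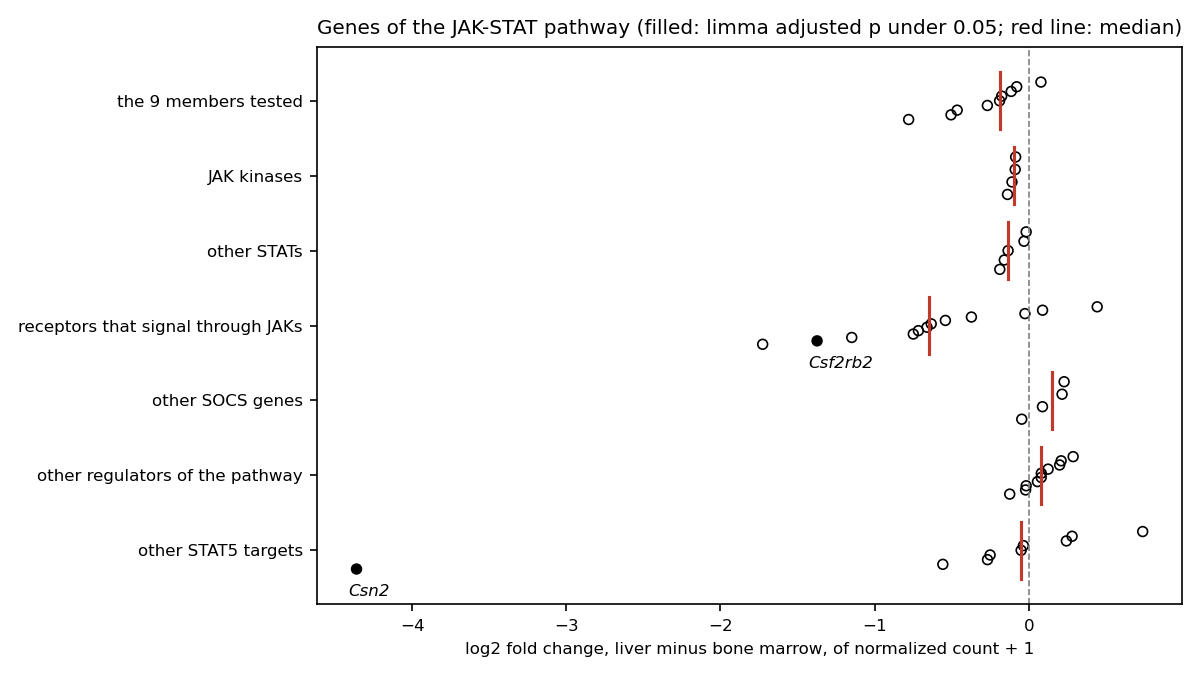
Log2 fold change of liver minus bone marrow (horizontal axis) for the 9 members tested and for 44 other genes of the pathway by list, with filled points for a limma adjusted p under 0.05 and a red line at the median of each list. Csf2rb2 and Csn2 are the 2 filled points, both below 0.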

How the data were processed

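Reads were handled with STAR 2.6.0c and Trimmomatic 0.36 among other tools, and normalized with DESeq2 1.16.1, which the submitters' processing notes list, and per the labels' protocols libraries came from a low-input cDNA kit with tagmentation. Which build, annotation and counter were used is not given in the sources used here. A signal is the unit of the deposited values, namely read counts that the authors divided by 1 DESeq2 size factor per library. Divided by the smallest value of its library, 100% of values came out whole within 0.01, so reads were recovered. 1 read was worth 0.988 to 1.42 normalized counts in liver and 0.744 to 0.898 in bone marrow.

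The limma fit (version 3.58.1) took log2(normalized count + 1) as input (R 4.3.3, variance trend, two-sided, Benjamini-Hochberg) over 14298 genes with a mean of at least 10. Alternatives were TMM and quantile scaling, a pseudocount of 0.5 or 10, filters at a mean of 50 or none, edgeR 4.0.16 (135 genes called) and DESeq2 1.42.0 (638 genes) on recovered reads, a term for the replicate number, and leaving out libraries. No pair of libraries in a group agreed within sampling noise, at a chi-square per degree of freedom of 6.77 to 27.9. The members and lists were chosen with earlier results of these data known. Named were all members and, of each other list, genes past the threshold and up to 4 with the smallest adjusted p. One gene that this rule names is not reported here. Floors are 3 reads and cover counting error only. Figures were drawn with matplotlib 3.10.9.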

Additional observations from a re-analysis of the deposited data

How the results depend on the processing

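The count of members past the threshold stayed at 0 in all limma and edgeR fits but the one on all 6 libraries with the replicate number as a term, including the 6 without 1 library each (0 to 0). It was 1 with DESeq2 (Cish) and 2 with the replicate block (Cish, adjusted p = 0.027, and Socs1, adjusted p = 0.030). Same-numbered libraries were not taken as pairs, since no label ties them and a correlation over 0.1 was required for each number, although Xist and Y-linked levels matched by number. The deviations of liver and bone marrow libraries correlated at 0.44, 0.40 and 0.058 across genes for numbers 1, 2 and 3 and liver replicate 3 correlated best with bone marrow replicate 2 (0.15). In Xist and Y-linked levels replicate 3 lay between replicates 1 and 2 in both tissues. A library between the others deviates little from its tissue mean, so the correlation for number 3 cannot decide whether these libraries are a pair. For the other JAK-STAT genes the count of 2 became 5 with DESeq2, 6 with the replicate block, 0 to 4 without 1 library each, 0 without both libraries numbered 3 and 1 without them with the block. For all genes the count of 145 became 638, 525, 6 to 427, 2 and 15 in the same order. Scaling by TMM or quantiles moved the median of all genes by -0.0013 and 0.016 on the log2 scale. Signs turned for log2 fold changes near 0. Without 1 library each, Stat5a ran from -0.13 to 0.019 (without bone marrow replicate 1), Socs2 from -0.38 to 0.066 (without liver replicate 1), Stat3 from -0.12 to 0.022 (positive without liver replicate 2 and, at 0.0030, replicate 3) and Socs7 from -0.054 (without liver replicate 2; -0.026 without bone marrow replicate 1) to 0.22. Signs also turned, without both libraries numbered 3, for Jak2 (0.022), Stat3 (0.023) and Socs5 (0.021), with and without the block. The cause was not tested. Depth limited Bcl6 to 33 reads.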
